A study of Mus musculus with 2 samples.

Results

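The 43 genes described here are antiviral genes that type I interferon switches on, chosen by symbol for their known role, among 34728 genes listed in the deposited tables of a Kdm2b knockout study. Every member was found, and all 43 reached a mean of 1 FPKM, as did 9039 genes in all. FPKM is the number of sequenced fragments scaled to transcript length and to the size of the library, so levels can be set side by side between genes. There was 1 library from Kdm2b-/- cells, labelled knockout (KO), and 1 from wild-type (WT) cells, both of peritoneal macrophages from C57BL/6 mice. Both groups of mice had received thioglycollate, which elicits these cells, 4 days before collection. Both cultures were given lipopolysaccharide (LPS), a bacterial cell wall component, at 100 ng/ml, for a time that the labels state as 4 h in one field and as 3 h in another. The labels state neither the kind of Kdm2b allele nor whether mice were pooled. With no untreated cells at hand, each value is a level under LPS and not a response to it.

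Macrophages that sense LPS through the receptor TLR4 make interferon-beta, which binds the receptor IFNAR on the same and on neighbouring cells. The kinases JAK1 and TYK2 then bring about the complex ISGF3, which holds STAT2 and IRF9. ISGF3 binds a DNA element called the ISRE before the antiviral genes, whose products block entry, transcription, translation and release of viruses.

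With 1 library a group there was no replicate and no test, and each difference describes these libraries. Kdm2b (ENSMUSG00000029475, chromosome 5, 122870665 to 122989823, GRCm38) had 0.326 FPKM in the KO-labelled library, against 0.205 FPKM in the WT library. About 45 fragments lay behind the value in KO-labelled cells and 29 behind that in WT cells. The 95% counting interval of the log2 ratio, computed here as elsewhere from fragments with no pseudocount, ran from -0.05 to 1.38. The targeted gene was thus not lower where the label says knockout, and a value per gene cannot show a missing exon. Directions below are therefore those of the KO-labelled library. An estimated 26800000 fragments lay behind the KO-labelled library and 27300000 behind the WT library. All 12 macrophage markers examined were measured in both, none 1.5-fold apart, 5 above 0 and 7 below, with sums of 18481 FPKM in the KO-labelled library and 17278 FPKM in the WT library.

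The sequences before the genes were searched for the core letters of the ISRE, and binding of ISGF3 was not measured. RefSeq promoter windows, each of 250 bases before and 50 after a transcription start (GRCm38.p6), were matched by symbol for 34 of the 43 members. The ISRE core was searched on both strands as GAAA, any 2 bases and GAAA again, counting overlapping matches. It was found for 13 of the 34 members, 38.2%, against 3.99% of all 27025 genes with a window. The GAS core, TTCNNNGAA, an element of the interferon-gamma response, was found for 7 of the 34 members, 20.6%, against 9.55% of all genes. The 22 ISRE core matches lay at positions -156 to 20, counted from the transcription start. These windows are shown because they belong to abundant members with the core (Ifit1, Isg15 and Rsad2) and to 2 members in which these letters were not in the window (Cmpk2, next to Rsad2, and Oasl1). Capitals mark the ISRE core. The 3 cores of Isg15 overlap, and those of Ifit1 and Rsad2 lie on the opposite strand.
Ifit1 (chr19:34640639-34640938, plus strand): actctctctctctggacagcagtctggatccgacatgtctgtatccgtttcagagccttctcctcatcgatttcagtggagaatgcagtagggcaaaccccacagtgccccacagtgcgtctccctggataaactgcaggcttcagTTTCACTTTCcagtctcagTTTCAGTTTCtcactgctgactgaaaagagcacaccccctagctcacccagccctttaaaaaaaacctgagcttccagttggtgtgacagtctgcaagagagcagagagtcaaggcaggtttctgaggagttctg
Isg15 (chr4:156200769-156201068, minus strand): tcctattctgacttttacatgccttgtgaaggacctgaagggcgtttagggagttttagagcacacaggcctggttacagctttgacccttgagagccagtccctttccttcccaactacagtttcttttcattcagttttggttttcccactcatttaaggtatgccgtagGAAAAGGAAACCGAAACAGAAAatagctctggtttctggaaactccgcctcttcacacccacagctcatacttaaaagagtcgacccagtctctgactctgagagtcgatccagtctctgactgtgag
Rsad2 (chr12:26456403-26456702, minus strand): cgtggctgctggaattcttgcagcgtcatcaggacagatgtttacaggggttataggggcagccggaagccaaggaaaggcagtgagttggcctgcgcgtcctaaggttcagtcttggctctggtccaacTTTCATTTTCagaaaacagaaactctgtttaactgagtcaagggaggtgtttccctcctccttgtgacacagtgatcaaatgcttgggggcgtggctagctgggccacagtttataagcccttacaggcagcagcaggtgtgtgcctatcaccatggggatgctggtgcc
Cmpk2 (chr12:26468965-26469264, plus strand): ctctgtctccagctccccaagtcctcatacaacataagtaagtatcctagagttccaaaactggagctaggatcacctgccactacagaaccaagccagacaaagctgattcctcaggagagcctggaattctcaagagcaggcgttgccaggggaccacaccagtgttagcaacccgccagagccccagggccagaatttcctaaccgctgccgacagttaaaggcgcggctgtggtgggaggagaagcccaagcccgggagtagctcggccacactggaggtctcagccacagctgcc
Oasl1 (chr5:114922990-114923289, plus strand): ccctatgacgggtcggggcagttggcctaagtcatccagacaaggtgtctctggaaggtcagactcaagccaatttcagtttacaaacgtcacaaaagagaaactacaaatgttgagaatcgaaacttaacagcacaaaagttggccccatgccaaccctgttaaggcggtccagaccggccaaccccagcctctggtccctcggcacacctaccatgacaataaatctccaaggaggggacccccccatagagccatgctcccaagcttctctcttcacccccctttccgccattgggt
The 13 members with an ISRE core had a median log2 ratio of -0.17 between the libraries, and 10 of them were lower in the KO-labelled library. The 21 whose window lacked it had a median of 0.05, with 10 lower. The ranges overlapped, from -0.47 to 0.20 with the core and from -0.49 to 0.55 without it. With the trend of all genes in transcript length and GC content subtracted, described further on, the medians were -0.19 with the core (13 of 13 below 0) and -0.13 without it (15 of 21 below 0). Of all tested genes 36.8% were below 0 as computed and 49.9% with the trend subtracted. Whether the core goes with the ratio was not tested.

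The antiviral genes were abundant in both libraries and close between them. In bulk RNA, fewer cells of a type and less RNA per cell cannot be told apart. They summed to 9918 FPKM, 2.63% of all FPKM, in the KO-labelled library and to 11794 FPKM, 2.93%, in the WT library. The median member stood at 57.8 FPKM in the KO-labelled library and 69.5 FPKM in the WT library, where the medians of all tested genes were 5.76 FPKM in KO-labelled and 5.17 FPKM in WT cells. In each library 6 members were among the 100 most abundant genes. Isg15 was the highest, at rank 24 in the KO-labelled library and rank 19 in the WT library, and Pml the lowest.

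**Figure D1:**
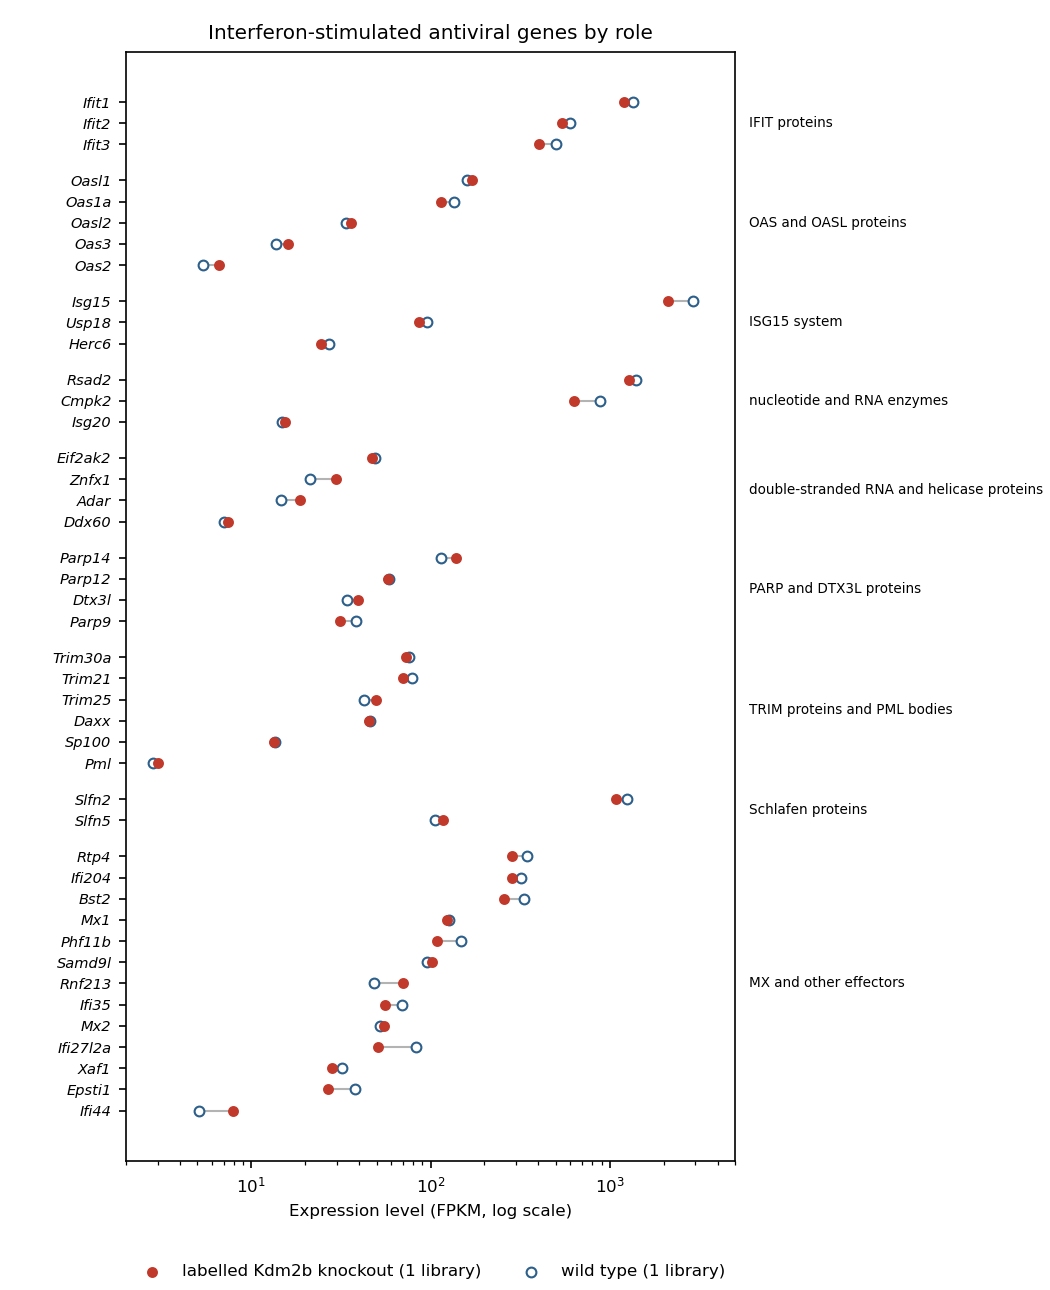
Expression level of each member in FPKM on a log axis, grouped by role, with filled points for the KO-labelled library and open points for the WT library (1 library each, no error bars). The members span from 3.03 to 2108 FPKM in the KO-labelled library and from 2.84 to 2923 FPKM in the WT library, and the points of most genes lie close together.

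For every gene a log2 ratio of FPKM + 1, KO-labelled over WT, was taken, and a gene was counted when at least 1.5-fold apart on that scale. Of the 43 members 1, Ifi27l2a, was 1.5-fold lower in the KO-labelled library and 0 were 1.5-fold higher. Over all 9039 genes tested, 2.8% were that much lower and 4.7% that much higher, or 7.5% in either direction. With FPKM as deposited, the members' count was thus not above the background. No member was 2-fold apart, a size by which 0.863% of all genes were higher and 1.02% lower, 1.88% in all. Member ratios had a median of -0.05 and ran from -0.70 to 0.55, and 26 of 43 (60.5%) were below 0, against a median of 0.10 and 36.8% below 0 for all genes. The ratio of higher to lower calls depends on scaling. When the KO-labelled library was multiplied by 0.915, which set the median of all genes to 0, the calls over all genes were 230 higher and 387 lower, in place of 425 and 253. The members then had 0 higher and 4 of 43 lower (Ifi27l2a, Epsti1, Cmpk2 and Isg15). This was a larger share lower than the 387 of 9039 genes. Oasl1, Oasl2, Isg20, Ddx60, Pml, Mx2 and Samd9l moved below 0. With equal FPKM totals the members had 2 higher (Ifi44 and Rnf213) and 1 lower (Ifi27l2a). Eif2ak2, Parp12, Trim30a, Sp100, Daxx and Mx1 moved above 0, and the calls over all genes were 667 higher and 195 lower.

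The IFIT genes, whose proteins bind foreign RNA ends and block its translation, were all lower in the KO-labelled library by small amounts. Ifit1 (ENSMUSG00000034459, chromosome 19, 34640871 to 34650009) stood at 1202 FPKM in the KO-labelled library and 1351 FPKM in the WT library (log2 ratio -0.17). Ifit2 stood at 543 FPKM in KO-labelled and 597 FPKM in WT cells (-0.14). Ifit3 stood at 403 FPKM in KO-labelled and 503 FPKM in WT cells (-0.32). These 3 neighbours on chromosome 19 thus kept their order of level in both libraries, and none was 1.5-fold apart.

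The ISG15 system, in which a ubiquitin-like tag is joined to other proteins, was lower in all 3 members. Isg15, the tag (ENSMUSG00000035692, chromosome 4, 156199424 to 156200818), stood at 2108 FPKM in the KO-labelled library and 2923 FPKM in the WT library (log2 ratio -0.47). Its 95% counting interval was -0.49 to -0.45, from about 42726 fragments in KO-labelled and 60239 in WT cells. Usp18, which removes the tag and restrains the interferon receptor, stood at 86.7 FPKM in KO-labelled and 95.6 FPKM in WT cells (-0.14), and Herc6, the main enzyme that attaches the tag in mice, at 24.6 FPKM in KO-labelled and 27.0 FPKM in WT cells (-0.13). The tag itself had the largest difference of the system, but with the trend in length and GC subtracted Isg15 (-0.24) and Herc6 (-0.23) were alike in size, and Usp18 was at -0.12.

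A pair of neighbouring genes of nucleotide metabolism on chromosome 12 differed by unlike amounts. Rsad2, which encodes viperin, an enzyme that makes a chain-terminating nucleotide (ENSMUSG00000020641, chromosome 12, 26442746 to 26456452), stood at 1279 FPKM in the KO-labelled library and 1403 FPKM in the WT library (-0.13). Cmpk2, a mitochondrial nucleotide kinase gene (ENSMUSG00000020638, chromosome 12, 26469204 to 26479837), stood at 634 FPKM in KO-labelled and 882 FPKM in WT cells (-0.48). The counting interval of Cmpk2, -0.49 to -0.46, did not meet that of Rsad2, -0.14 to -0.12. Isg20, an RNA exonuclease gene, stood at 15.4 FPKM in KO-labelled and 14.8 FPKM in WT cells (0.05), with a counting interval that held 0.

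The OAS genes encode enzymes that sense double-stranded RNA and make the messenger that activates RNase L, and they lie on the chromosome of Kdm2b. Oas1a stood at 115 FPKM in the KO-labelled library and 135 FPKM in the WT library (log2 ratio -0.23). Oas2 (6.63 FPKM in KO-labelled and 5.37 FPKM in WT cells, 0.26) and Oas3 (16.0 FPKM in KO-labelled and 13.8 FPKM in WT cells, 0.20) were on the other side of 0. Oasl1, which in mice restrains translation of the interferon regulator IRF7, stood at 170 FPKM in KO-labelled and 160 FPKM in WT cells (0.09). Oasl2 stood at 36.2 FPKM in KO-labelled and 33.7 FPKM in WT cells (0.10). None of the 5 was 1.5-fold apart. With the KO-labelled library scaled to a median of 0, Oasl1 and Oasl2 were below 0.

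Because the labels do not say how the Kdm2b allele was carried in the strain, the stretch from Oasl2 to Kdm2b was described as a whole. It spans 8.09 Mb of chromosome 5 (114896936 to 122989823) and holds 66 tested genes. The 61 that are not members had a median log2 ratio of 0.08, with 1 of them, Hspb8 (5.41 FPKM in the KO-labelled library and 3.17 FPKM in the WT library, 0.62), at least 1.5-fold higher and 0 lower. Coq5, Med13l, Pxn, Oas1c and Acads followed in size, from 0.58 to -0.49. The other 476 tested genes of the chromosome had a median of 0.11, and the 5 OAS and OASL members one of 0.10.

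**Figure D2:**
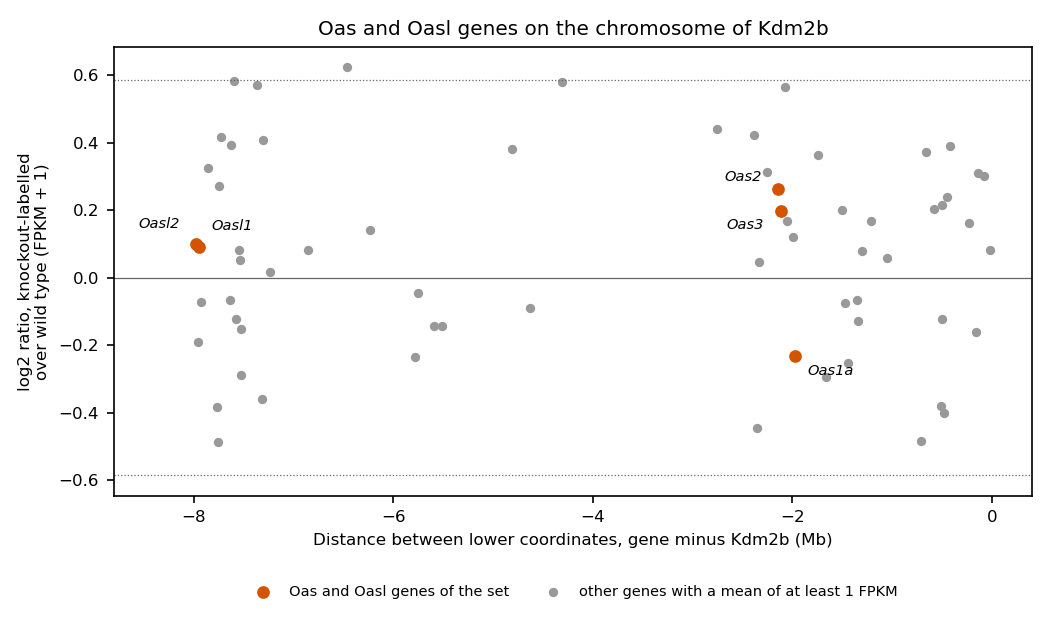
Log2 ratio of the KO-labelled over the WT library (FPKM + 1) against distance from Kdm2b in Mb, counted between the lower coordinates, for the 5 OAS and OASL members and the other tested genes of the stretch, with dotted lines at 1.5-fold. The 5 members lie between -0.23 and 0.26, inside the spread of their neighbours, and no gene is 1.5-fold lower.

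Genes for sensing and handling double-stranded RNA included members that were higher in the KO-labelled library. Znfx1, an RNA helicase that acts as an early sensor, stood at 29.5 FPKM in the KO-labelled library and 21.4 FPKM in the WT library (log2 ratio 0.45). Adar, which edits adenosine to inosine in double-stranded RNA, stood at 18.6 FPKM in KO-labelled and 14.7 FPKM in WT cells (0.32). Their counting intervals lay above 0, but less the trend in length and GC their ratios were smaller, 0.10 for Znfx1 and 0.03 for Adar. Eif2ak2, which encodes PKR, a kinase that halts translation, stood at 46.9 FPKM in KO-labelled and 49.2 FPKM in WT cells (-0.07), and the helicase gene Ddx60 at 7.44 FPKM in KO-labelled and 7.08 FPKM in WT cells (0.06).

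The PARP genes, which encode enzymes and binders of ADP-ribose, lay on both sides of 0, although 3 of them are close neighbours on chromosome 16. Parp14 stood at 139 FPKM in the KO-labelled library and 115 FPKM in the WT library (log2 ratio 0.27). Dtx3l, a ubiquitin ligase gene whose product pairs with PARP9, stood at 39.2 FPKM in KO-labelled and 34.1 FPKM in WT cells (0.20), while Parp9 itself stood at 31.2 FPKM in KO-labelled and 38.3 FPKM in WT cells (-0.29). Parp9 and Dtx3l overlap on opposite strands, and the libraries are not described as strand-marked, so reads of the overlap cannot be assigned between them. Less the trend in length and GC, Parp14 and Dtx3l were near 0, at 0.01 and 0.0052, and Parp9 was at -0.40. Parp12, on chromosome 6, stood at 57.8 FPKM in KO-labelled and 58.5 FPKM in WT cells (-0.02).

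TRIM genes and genes of PML nuclear bodies, which restrain viral genomes in the nucleus, were within a narrow range of -0.17 to 0.22. Trim25, which activates the RNA sensor RIG-I, stood at 49.9 FPKM in the KO-labelled library and 42.8 FPKM in the WT library (0.22), and Trim21, a cytosolic antibody receptor gene, at 70.0 FPKM in KO-labelled and 78.8 FPKM in WT cells (-0.17). Both are ubiquitin ligase genes, and less the trend in length and GC both were below 0, at -0.05 for Trim25 and -0.25 for Trim21. Trim30a, which in mice restrains TLR signalling, stood at 73.1 FPKM in KO-labelled and 75.7 FPKM in WT cells (-0.05). As computed, the genes of the nuclear bodies were among the members with the smallest differences. Less the trend in length and GC, Daxx was at -0.23, Pml at -0.18 and Sp100 at -0.13. Pml, which builds the bodies, stood at 3.03 FPKM in KO-labelled and 2.84 FPKM in WT cells (0.07). Sp100 stood at 13.4 FPKM in KO-labelled and 13.6 FPKM in WT cells (-0.02), and Daxx, which silences viral chromatin, at 45.2 FPKM in KO-labelled and 45.8 FPKM in WT cells (-0.02). Of the Schlafen genes, Slfn2 stood at 1082 FPKM in KO-labelled and 1249 FPKM in WT cells (-0.21) and Slfn5 at 118 FPKM in KO-labelled and 107 FPKM in WT cells (0.14).

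The remaining 13 effectors held the widest differences in both directions. Ifi27l2a, a small interferon-induced membrane protein gene of the ISG12 family (ENSMUSG00000079017, chromosome 12, 103442167 to 103443680), stood at 50.7 FPKM in the KO-labelled library and 82.8 FPKM in the WT library (log2 ratio -0.70). Its counting interval, on the scale without a pseudocount, was -0.85 to -0.56, from about 629 fragments in KO-labelled and 1044 in WT cells. Epsti1 (26.9 FPKM in KO-labelled and 38.1 FPKM in WT cells, -0.49) and Phf11b (108 FPKM in KO-labelled and 149 FPKM in WT cells, -0.46) followed. Bst2, which encodes tetherin, a membrane protein that holds budding virus at the cell, stood at 258 FPKM in KO-labelled and 333 FPKM in WT cells (-0.37).

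At the other end, Ifi44 (ENSMUSG00000028037, chromosome 3, 151730922 to 151749960) stood at 7.93 FPKM in the KO-labelled library and 5.09 FPKM in the WT library. Its log2 ratio was 0.55 on the FPKM + 1 scale and 0.63 with a pseudocount of 0.1, which put it past 1.5-fold. Rnf213, a giant ubiquitin ligase gene (ENSMUSG00000070327, chromosome 11, 119393100 to 119487418), stood at 70.6 FPKM in KO-labelled and 48.3 FPKM in WT cells (0.54). The dynamin-like GTPase genes Mx1 (123 FPKM in KO-labelled and 127 FPKM in WT cells, -0.05) and Mx2 (54.7 FPKM in KO-labelled and 52.0 FPKM in WT cells, 0.07) were close, and C57BL/6 mice are known to carry a deletion that leaves Mx1 without a working protein. Samd9l, a restriction factor of poxviruses, stood at 102 FPKM in KO-labelled and 95.2 FPKM in WT cells (0.09). The last members were all lower in the KO-labelled library. Ifi35 stood at 55.5 FPKM in KO-labelled and 69.5 FPKM in WT cells (-0.32), and Rtp4, whose product blocks RNA viruses, at 285 FPKM in KO-labelled and 345 FPKM in WT cells (-0.27). The apoptosis gene Xaf1 stood at 28.2 FPKM in KO-labelled and 32.3 FPKM in WT cells (-0.19), and the DNA sensor gene Ifi204 at 283 FPKM in KO-labelled and 319 FPKM in WT cells (-0.17).

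Counting error was small beside most of these differences. An estimated 364 to 143599 fragments lay behind each member in the KO-labelled library and 347 to 160150 in the WT library. The 95% counting intervals lay below 0 for 23 members, above 0 for 14 and held 0 for 6. They cover counting error only, not the spread between mice, and for the 36 members with several annotated transcripts they depend on the length assumed. They also hold only for the scaling by FPKM. When the median of all genes was scaled to 0, 37 of the 43 members fell outside their own intervals. The number was 34 with equal totals and 33 less the trend in length and GC. Pseudocounts of 0.1 and 5 put 0 and 3 outside. An interval clear of 0 thus did not fix the direction under another scaling, as for Oasl1, Oasl2, Mx2 and Samd9l. Intervals were not counted over all genes here, so these counts have no background beside them. An interval narrows as fragments increase, and the members' median level was above that of all tested genes (57.8 against 5.76 FPKM in the KO-labelled library). The counts are thus not read as a trait of the members. Adar, Eif2ak2, Herc6, Rnf213, Rtp4 and Znfx1 are among the members whose span, introns included, overlaps that of another annotated gene, mostly on the opposite strand. Where exons are shared, reads of the shared bases cannot be told from that gene's. How much of each transcript is shared was not measured. Another annotated gene overlaps 18 of the 43 members, 41.9%, against 53.3% of all tested genes. In the 25 without an overlap the median log2 ratio was -0.14. Ifit3, Oas1a, Phf11b, Trim30a, Ifi204 and the Schlafen genes have similar copies nearby, and how the authors' counting shared reads among copies is not stated.

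The ratio went with transcript length, among the members as over the whole table. Spearman's rho between the log2 ratio and the longest annotated transcript was 0.76 over the 43 members and 0.46 over 9017 tested genes, which share the same libraries. The 14 shortest members (463 to 2296 bases) had a median of -0.30, with 12 (85.7%) below 0. Other genes of that span had one of -0.08, with 61.5% below 0. The 15 of middle length (2476 to 4064 bases) had a median of -0.05, with 11 (73.3%) below 0. Other genes of that span had one of 0.12, with 31.0% below 0. The 14 longest (4189 to 16716 bases) had a median of 0.17, with 3 (21.4%) below 0. Other genes of that span had one of 0.24, with 14.4% below 0. The members' medians thus stood below those of other genes in each span. Ifi27l2a, Isg15 and Bst2 are the 3 shortest members, and Rnf213, Parp14 and Znfx1 the 3 longest.

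**Figure D3:**
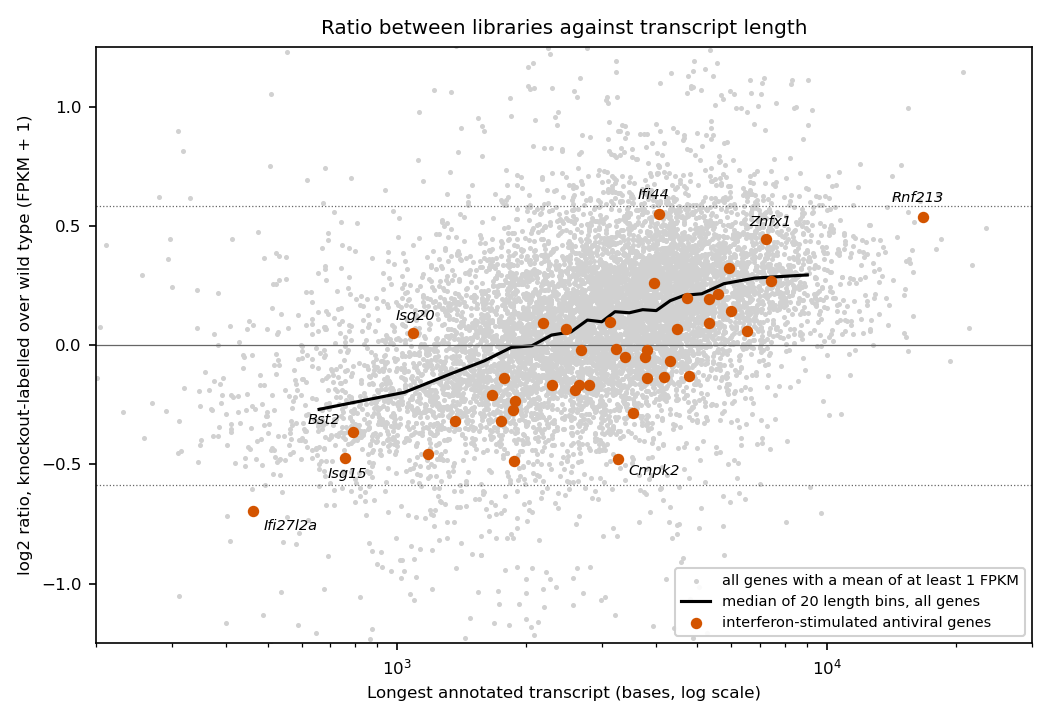
Log2 ratio of the KO-labelled over the WT library (FPKM + 1) against the longest annotated transcript in bases (log axis), for the members and all tested genes, with the median of 20 length bins as a line and dotted lines at 1.5-fold; genes beyond the axis are not drawn. The line climbs from -0.27 in the shortest bin to 0.29 in the longest, and the members follow it, mostly underneath.

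With the trend in length and GC content of all genes removed, most members were below 0. Their median was -0.15, and 35 of 43 (81.4%) were below 0, against 49.9% of all genes. The removal did not take away the relation with length among the members, with a rho of 0.49 left, against 0.07 over all genes. The rho with mean FPKM was then -0.38 over the members and -0.10 over all genes. Isg15 moved to -0.24 and Ifi27l2a to -0.46, while Rnf213 moved to 0.25 and Adar and Parp14 to 0.03 and 0.01. Cmpk2 moved to -0.59, the lowest of the 43 and the 1 member then 1.5-fold lower. Ifi44 was still the highest, at 0.50. Oas3, Oasl1, Oasl2, Ddx60, Trim25, Pml, Slfn5, Mx2 and Samd9l were then below 0, in place of above it. What sets the length trend between the libraries was not tested.

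**Figure D4:**
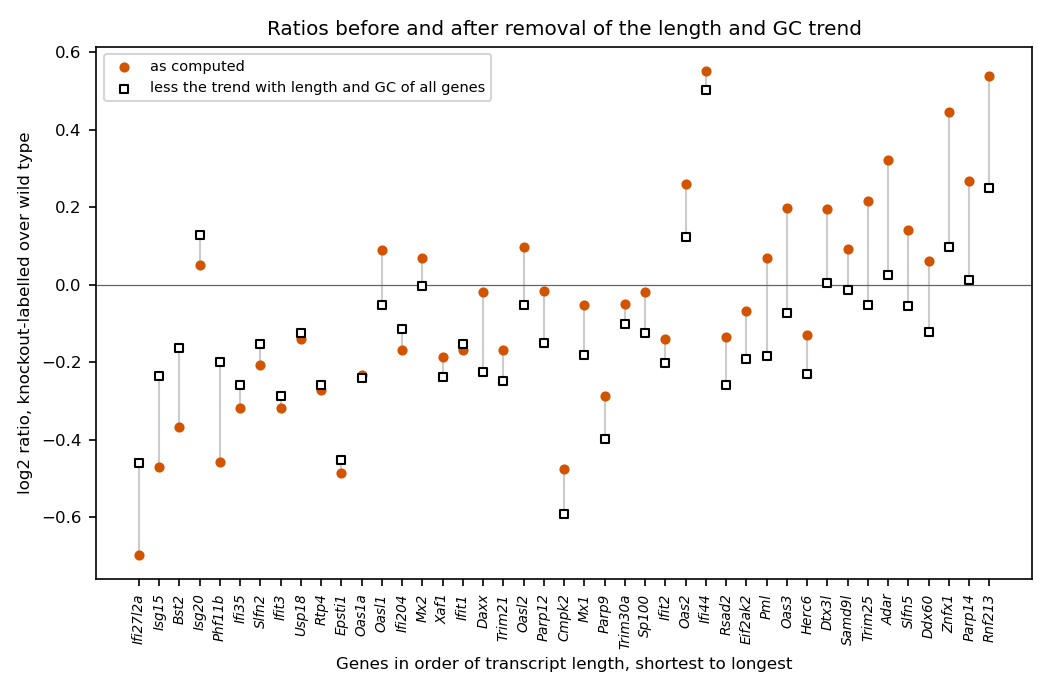
Log2 ratio of each member as computed from FPKM + 1 (filled) and less the trend with length and GC content of all genes (open squares), in order of transcript length. The filled points climb with length, from Ifi27l2a at -0.70 to Rnf213 at 0.54, and 35 of the 43 open squares lie below 0.

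Level went with the ratio too, with a rho of -0.52 between the ratio and the mean FPKM over the 43 members and -0.24 over all genes. All 10 members with a mean of at least 200 FPKM, a bound chosen after the values were seen, were lower in the KO-labelled library (median -0.24). They were Isg15, Rsad2, Ifit1, Slfn2, Cmpk2, Ifit2, Ifit3, Rtp4, Ifi204 and Bst2. Of 249 other genes at that level 185, 74.3%, were below 0, with a median of -0.21. The 33 members of lower level had a median of 0.05, with 16 (48.5%) below 0. The 8747 other genes of lower level had a median of 0.11, with 35.6% below 0. Less the trend in length and GC, 25 of these 33 members (75.8%) were below 0, against 49.2% of those other genes. All 10 members of the higher level were then below 0 too, against 67.7% of the other genes at that level.

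The pathway that feeds these genes was described from lists of its other parts. Ifnb1, the interferon gene that LPS induces (ENSMUSG00000048806), stood at 23.1 FPKM in the KO-labelled library and 33.8 FPKM in the WT library (log2 ratio -0.53, counting interval -0.72 to -0.38). It is a short gene, and with the length and GC trend removed its ratio was -0.20. Of the 21 ligand and receptor genes listed, 12 were at 0 in both libraries, and Ifnb1 was the only type I interferon gene past the floor. The genes of the receptor IFNAR were close. Ifnar1 stood at 18.1 FPKM in KO-labelled and 15.7 FPKM in WT cells (0.20). Ifnar2 stood at 41.1 FPKM in KO-labelled and 38.4 FPKM in WT cells (0.10). Of the interferon-gamma receptor genes on the list, Ifngr1 was lower in the KO-labelled library (-0.54, counting interval -0.72 to -0.44). Ifngr1 stayed at -0.54 less the trend in length and GC. Ifngr2 was at 0.15 as computed and at -0.01 less that trend.

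None of the 4 genes described here for JAK-STAT signalling and ISGF3 was 1.5-fold apart, and their median was 0.23. Stat2 stood at 79.1 FPKM in the KO-labelled library and 66.5 FPKM in the WT library (0.25), and Irf9 at 14.3 FPKM in KO-labelled and 13.4 FPKM in WT cells (0.09). The kinase genes Jak1 (28.9 FPKM in KO-labelled and 24.7 FPKM in WT cells, 0.22) and Tyk2 (7.45 FPKM in KO-labelled and 5.61 FPKM in WT cells, 0.35) were higher in the KO-labelled library. The list median was 0.03 once the trend with length and GC was subtracted.

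Of 11 genes that carry the signal from TLR4 to interferon, Tlr4 itself was 1.5-fold higher (3.45 FPKM in the KO-labelled library and 0.732 FPKM in the WT library, log2 ratio 1.36) and 0 were lower. Its adaptor genes Ticam2 (0.48) and Ticam1 (0.35) were higher, and Ly96, the TLR4 partner MD-2, lower (-0.33), though at 0.04 less the trend in length and GC. Irf3 stood at 17.6 FPKM in KO-labelled and 16.5 FPKM in WT cells (0.09) and Irf7 at 24.0 FPKM in KO-labelled and 26.9 FPKM in WT cells (-0.16). Of 9 inhibitor genes that are not members, 0 were 1.5-fold apart, with Cish at -0.41, Socs3 at -0.28, Pias1 at 0.29 and Ptpn11 at 0.36. Less the trend in length and GC, Cish was at -0.66, past 1.5-fold, and Socs3 at -0.45. Pias1 was then at 0.12 and Ptpn11 at 0.09, and the median of the 9 was -0.02.

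Other interferon-stimulated genes spread more widely than the members. Of 60 tested, 5 were at least 1.5-fold lower and 1, Tor3a (0.62), higher, with a median of -0.03. The lowest were Ifit1bl1 (6.08 FPKM in the KO-labelled library and 14.1 FPKM in the WT library, -1.10), Trim30c (66.6 FPKM in KO-labelled and 137 FPKM in WT cells, -1.03) and Phf11a (12.3 FPKM in KO-labelled and 21.3 FPKM in WT cells, -0.74). Of 21 tested genes of the interferon-gamma response 9 were at least 1.5-fold lower and 0 higher (median -0.19), led by Tgtp1 (-1.69), H2-Eb1 (-1.54), Cxcl9 (-1.37) and H2-Aa (-1.13). Tgtp1 has a near-identical neighbour, Tgtp2, that was on the other side of 0 (95.8 FPKM in KO-labelled and 64.9 FPKM in WT cells, 0.55), and the pair summed to 113 FPKM in KO-labelled and 121 FPKM in WT cells. Of the 9 lower genes, 4 are MHC class II genes (H2-Aa, H2-Ab1, H2-Eb1 and Cd74), which B cells also express. The B cell markers Igkc (-3.01) and Ighm (-1.99) were lower too, while Cd22, the only other B cell marker past the floor, was at 0.06. The part of B cells in the count of the interferon-gamma list was not tested. Ifng was at 0.031 FPKM in the KO-labelled library and at 0 in the WT library. Of 20 LPS-response genes outside interferon 4 were lower and 1 higher (median -0.02), with Il6 (-1.01), Ier3 (-0.85), Cxcl3 (0.62) and Il1b (-0.61) farthest from 0. Whether these lists differ from the members was not tested.

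**Figure D5:**
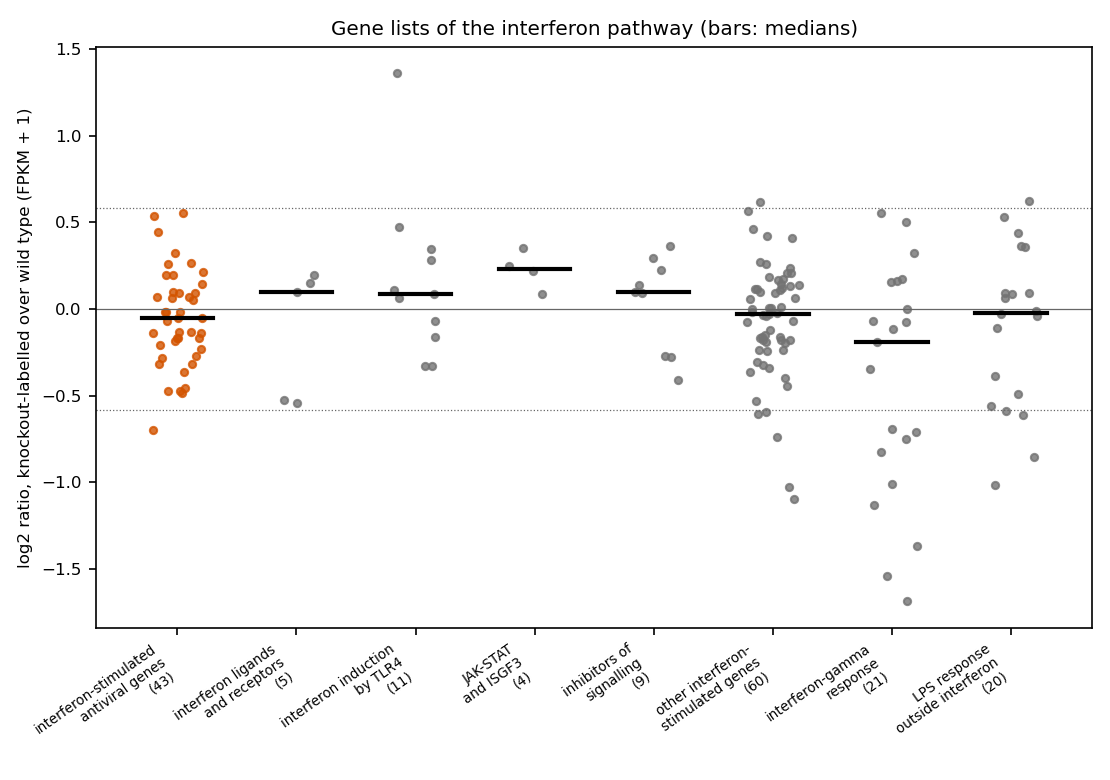
Log2 ratio of the KO-labelled over the WT library (FPKM + 1) for the 43 members and for tested genes of 7 related lists, with the members left out of the other lists, bars at list medians, dotted lines at 1.5-fold and sideways scatter for legibility only. Medians run from -0.19 for the interferon-gamma response to 0.23 for JAK-STAT and ISGF3, and 1 of the 43 members lies beyond 1.5-fold.

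Markers of other peritoneal and interferon-making cells were set beside the members. Of 12 markers of plasmacytoid dendritic cells, which make interferon and carry Bst2, Siglech, Klk1 and Smim5 were at 0 in both libraries, and the list summed to 13.7 FPKM in the KO-labelled library and 14.6 FPKM in the WT library. Within it Ly6d was lower (0.351 FPKM in KO-labelled and 4.48 FPKM in WT cells) and Cox6a2 higher (9.16 FPKM in KO-labelled and 5.07 FPKM in WT cells). All 8 B cell markers were detected in at least 1 library, with sums of 8.44 FPKM in KO-labelled and 32.6 FPKM in WT cells. Most of these sums came from Igkc, Ighm and Cd22. Igkc, an antibody light chain gene, stood at 1.47 FPKM in KO-labelled and 18.9 FPKM in WT cells. Ighm stood at 0.992 FPKM in KO-labelled and 6.92 FPKM in WT cells, and Cd22 at 5.57 FPKM in KO-labelled and 5.32 FPKM in WT cells. The 10 T and NK cell markers summed to 0.209 FPKM in KO-labelled and 0.193 FPKM in WT cells. Of 10 mesothelial and stromal markers, 6 were above 0 and 4 below. Col1a1, Col1a2 and Col3a1 were at least 1.5-fold higher in the KO-labelled library. Wt1 (0.44), Upk3b (0.35) and Dcn (0.02) were above 0 by less, while Msln (-0.50), Lum (-0.35), Krt19 (-0.31) and Krt8 (-0.18) were lower. The list summed to 381 FPKM in KO-labelled and 339 FPKM in WT cells. Most of this was Dcn, at 251 FPKM in KO-labelled and 248 FPKM in WT cells. The part of these cells in the members' values was not tested.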

How the data were processed

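Messenger RNA was measured in 2 libraries, 1 labelled Kdm2b knockout and 1 wild type. The labels' protocols describe paired-end TruSeq libraries of polyadenylated RNA, primed at random, and no strand marking. The authors deposited FPKM per Ensembl gene, per the file headers. HISAT2 2.0.4, StringTie 1.3.0, edgeR, GRCm38.p4 and mm10 appear in the submitters' processing notes, without roles. The sources used here give neither annotation release nor filters. Because FPKM divides by length and library size, a difference in fragmentation or a few abundant genes shifts the values of others.

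Symbols, positions, transcript lengths and GC content came from GENCODE M21 (GRCm38), with the longest transcript as a gene's length; 478 IDs had no symbol, and FPKM of IDs sharing a symbol was summed (17 symbols). Fragments were estimated from whole multiples in FPKM times length of low genes with 1 transcript: 92.6% of 1518 in the library labelled knockout and 92.2% of 1456 in the WT library lay within 0.02 of a whole fragment. Intervals are exact Clopper-Pearson 95% intervals without a pseudocount. The log2 ratio used FPKM + 1, so differences of low genes are understated, and a floor of a mean of 1 FPKM, with calls at 1.5-fold and 2-fold. No p-value was computed. The trend was removed by subtracting medians of 20 length bins and then of 20 GC bins. The calculations were tested on simulated data. Python 3.11.15, pandas 2.3.3, NumPy 2.4.6, SciPy 1.17.1 and Matplotlib 3.10.9 were used.

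The members and lists were chosen with earlier results of these data known. A pathway gene is not reported here and was left out of its list. All members could be named; from other lists, up to 4 genes with the largest ratios, from the stretch around Kdm2b up to 6, and the main pathway genes; any other gene was named with its values known. Alternatives tried were pseudocounts of 0.1 and 5, 3 scalings, a floor of 5 or none and the trend removal; leaving out members with an overlapping gene was added after the data were seen.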

Additional observations from a re-analysis of the deposited data

How the results depend on the processing

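The count of 0 members at least 2-fold apart held in every setting run. The median of the members was -0.15 less the trend with length and GC, -0.14 without members that overlap another gene, -0.18 with the median of all genes scaled to 0, -0.19 with equal upper quartiles and 0.042 with equal totals. Members at least 1.5-fold lower were 4 of 43 with the median scaled to 0 and 5 of 43 with equal upper quartiles. Both were larger shares than over all 9039 genes, where 387 and 401 were that much lower. Members at least 1.5-fold higher were 1 with a pseudocount of 0.1 and 2 with equal totals. Without overlapping members 17 of 25 were below 0. Over all genes, those 1.5-fold higher were 897 and 94 with pseudocounts of 0.1 and 5, 230 with the median scaled to 0, 216 with equal upper quartiles, 667 with equal totals, 189 at a floor of 5 FPKM and 229 with the trend removed. Those 1.5-fold lower were 127 with a pseudocount of 5, 387 with the median scaled to 0, 401 with equal upper quartiles and 144 at a floor of 5 FPKM. A scaling moves all ratios together, a larger pseudocount draws them to 0 and a higher floor leaves fewer genes. Of 43 members 7 changed sign with the median scaled to 0, 6 with equal totals and 9 with the trend removed. No paired analysis was possible because each group has 1 library. The spread between mice is unknown, which limits every difference given.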

Other observations

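Some members lie in clusters of similar genes, and how the authors' counting shared reads among copies is not stated, so these values are uncertain. The relatives were named after their values were seen. In the Phf11 cluster Phf11a (12.3 FPKM in the KO-labelled library and 21.3 FPKM in the WT library), Phf11b (108 FPKM in KO-labelled and 149 FPKM in WT cells) and Phf11d (31.9 FPKM in KO-labelled and 42.4 FPKM in WT cells) were lower in KO-labelled cells, and the weakly expressed Phf11c stood at 2.00 FPKM in KO-labelled and 1.59 FPKM in WT cells. In the Trim30 cluster Trim30a stood at 73.1 FPKM in KO-labelled and 75.7 FPKM in WT cells and Trim30d at 32.2 FPKM in KO-labelled and 35.9 FPKM in WT cells, with Trim30c apart at 66.6 FPKM in KO-labelled and 137 FPKM in WT cells.

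In the Ifi200 cluster, whose products bind DNA and regulate transcription, Ifi204 stood at 283 FPKM in the KO-labelled library and 319 FPKM in the WT library. Its relatives went both ways, with Ifi211 at 748 FPKM in KO-labelled and 835 FPKM in WT cells, Ifi205 at 280 FPKM in KO-labelled and 315 FPKM in WT cells, Ifi209 at 225 FPKM in KO-labelled and 226 FPKM in WT cells and Ifi207 at 165 FPKM in KO-labelled and 145 FPKM in WT cells. Next to Oas1a (115 FPKM in KO-labelled and 135 FPKM in WT cells), Oas1g stood at 29.8 FPKM in KO-labelled and 27.4 FPKM in WT cells and Oas1b at 4.58 FPKM in KO-labelled and 3.97 FPKM in WT cells. Ifit3b stood at 70.6 FPKM in KO-labelled and 89.6 FPKM in WT cells, as much lower as Ifit3 (log2 ratios -0.34 and -0.32).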
